A study of Mus musculus with 27 samples.

Results

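Semaphorins and their receptors guide the cells that shape the outflow tract of the heart, and 6 such genes were followed here in embryonic mouse hearts. They are the secreted ligands Sema3c and Sema3a, the coreceptors Nrp1 and Nrp2, and the receptors Plxna2 and Plxnd1. They were chosen by gene symbol in the platform annotation, and they are 6 of the 19935 genes measured. Each has a single probe set with its symbol alone: 10519886 for Sema3c, 10519717 for Sema3a, 10576639 for Nrp1, 10346843 for Nrp2, 10352867 for Plxna2 and 10547100 for Plxnd1. Total RNA came from whole hearts dissected at stage E11.5, on a C57Bl/6/BLKSW mix background, and was hybridised to 27 Affymetrix arrays. The groups were wild type (n = 6), Brg1+/- (n = 6), Tbx5+/- (n = 5), Nkx2-5+/- (n = 4), Tbx5+/- Brg1 +/- (n = 3) and Nkx2-5+/- Brg1+/- (n = 3). Smarca4 encodes Brg1, the motor subunit of the nucleosome-moving BAF complex, while Tbx5 and Nkx2-5 encode DNA-binding regulators of heart development. The design asks what the loss of 1 copy of each does, and whether Brg1 loss alters the effect of losing Tbx5 or Nkx2-5. The labels name no allele, driver or litter, do not say whether an array holds 1 heart or a pool, and do not say that arrays are separate embryos. The p-values therefore measure only the spread between these arrays.

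In the heart, Sema3c is made by outflow tract muscle, where it attracts neural crest cells that divide the vessel into aorta and pulmonary trunk. Those cells carry Plxna2 as a receptor, and endothelial cells carry Plxnd1. Neuropilins have short intracellular ends and act as binding partners that let class 3 semaphorins engage plexins. Mouse embryos that lack Sema3c or Plxnd1 have outflow tracts that do not divide properly. A whole heart mixes muscle, endothelium, cushion cells, epicardium and blood, so fewer cells of a type and less RNA per cell cannot be told apart in these values.

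All values are RMA log2 signals, on which a difference of 1 is a doubling. They were compared with limma, in a shared fit with a mean per group, and genes with an adjusted p under 0.05 over all 19935 count as called. Array medians lay between 6.18 and 6.33. A pair of arrays carried a Smarca4 signal that went against the label. Nkx2-5+/- replicate 3 had Smarca4 at 9.57, where the other Nkx2-5+/- arrays had 9.89 to 10.08. Its Nkx2-5 signal was 9.40, where the others had 8.48 to 8.63. That value lay inside the wild-type range of Nkx2-5, 9.17 to 9.96, and above the 8.85 to 9.24 of Nkx2-5+/- Brg1+/-. Tbx5+/- Brg1 +/- replicate 3 had Smarca4 at 10.01, where the others had 9.51 and 9.64. Smarca4 ran from 9.95 to 10.16 in wild type and from 9.16 to 9.45 in Brg1+/-. The value of Nkx2-5+/- replicate 3 lay between these ranges, as did those of the other Tbx5+/- Brg1 +/- arrays. The Tbx5 signal was not lower in the groups labelled with a Tbx5 deletion: it ran from 8.51 to 8.90 in Tbx5+/- and from 8.50 to 8.70 in Tbx5+/- Brg1 +/-, against 8.40 to 8.96 in wild type. The extent of the Tbx5 deletion is not given in the labels, and this probe set gives no check of them. Against wild type the Tbx5 signal was lower by 0.49 in Nkx2-5+/- (limma adjusted p = 0.0225), a group with no Tbx5 deletion in its label. In Brg1+/- it stood at -0.45 (limma adjusted p = 0.328) and in Nkx2-5+/- Brg1+/- at -0.06 (limma adjusted p = 0.937). Group names stand for arrays as labelled. A printed difference of the 6 genes that a doubted array moved by over 1.5 times or across the threshold is followed by its value without that array. Heart muscle markers were well represented, with list means between 11.63 and 12.58, and so were endothelial markers, with list means between 8.77 and 9.9995.

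The promoters of Sema3c and Sema3a are shown because these are the 2 ligands of the set, on the same chromosome, and Sema3c carries the call described next. A difference between the ligands in their response was not tested. Each window holds the 250 bases before the annotated start and the 50 bases from it on, read from RefSeq on GRCm38.p6. Sema3c lies at chr5:17574566-17574865 and Sema3a at chr5:13396534-13396833, both on the plus strand. Capitals mark matches, on either strand, to a motif core of Nkx factors, AAGTG. They also mark the core of T-box factors, which is GGTGT. The core of the Gata factors, searched in the same way, is GATAA.
Sema3c: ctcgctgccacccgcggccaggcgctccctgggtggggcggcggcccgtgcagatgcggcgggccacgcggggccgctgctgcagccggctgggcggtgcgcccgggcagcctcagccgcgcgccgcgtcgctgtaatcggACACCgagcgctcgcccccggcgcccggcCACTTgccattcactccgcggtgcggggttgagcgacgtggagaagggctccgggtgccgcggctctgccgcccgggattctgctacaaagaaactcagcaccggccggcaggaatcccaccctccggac
Sema3a: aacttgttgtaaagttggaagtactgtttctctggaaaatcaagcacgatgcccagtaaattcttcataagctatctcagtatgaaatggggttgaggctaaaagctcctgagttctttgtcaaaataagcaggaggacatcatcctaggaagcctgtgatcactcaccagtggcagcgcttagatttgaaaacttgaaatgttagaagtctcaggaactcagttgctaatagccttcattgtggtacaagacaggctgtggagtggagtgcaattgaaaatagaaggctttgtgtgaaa
The Sema3c window had a GC content of 75.7% and 42 CpG sites, while the Sema3a window had 41.3% and 2, against a median GC content of 52.7% over 32851 promoters of the same length. In Sema3c, AAGTG matched on the minus strand (written CACTT above) from base -80, and GGTGT on the minus strand (written ACACC) from base -109. These matches did not overlap, and the window held no GATAA. In Sema3a none of the 3 motifs occurred. AAGTG was present in 46.4% of all promoters, GGTGT in 41.6% and GATAA in 25.4%, so a match of this kind is common. Of the other members, Nrp2 held GGTGT at 2 places, Plxna2 and Plxnd1 held GATAA, and Nrp1 held none of the 3. The matches are descriptions of these windows and were not tested as binding sites.

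Sema3c was lower in Nkx2-5+/- hearts than in wild-type hearts, and that was the only call for any of the 6 genes. In wild type the signal ran from 7.63 to 7.99 with a median of 7.83. In Brg1+/- it ran from 6.98 to 7.79 with a median of 7.65. In Tbx5+/- the arrays gave 7.57, 7.26, 7.70, 7.55 and 7.84. Brg1+/- and Tbx5+/- each overlapped wild type, though each also held arrays below the wild-type range. In Nkx2-5+/- the arrays gave 6.78, 6.56, 7.80 and 6.95. Replicates 1, 2 and 4 lay below every other array of the study, whereas replicate 3, at 7.80, lay inside the wild-type range. The arrays of Tbx5+/- Brg1 +/- gave 7.68, 7.66 and 7.49, and in Nkx2-5+/- Brg1+/- they gave 7.56, 7.60 and 7.50. All arrays of Nkx2-5+/- Brg1+/- lay below all wild-type arrays, by a small distance, and well above the 3 low Nkx2-5+/- arrays.

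**Figure D1:**
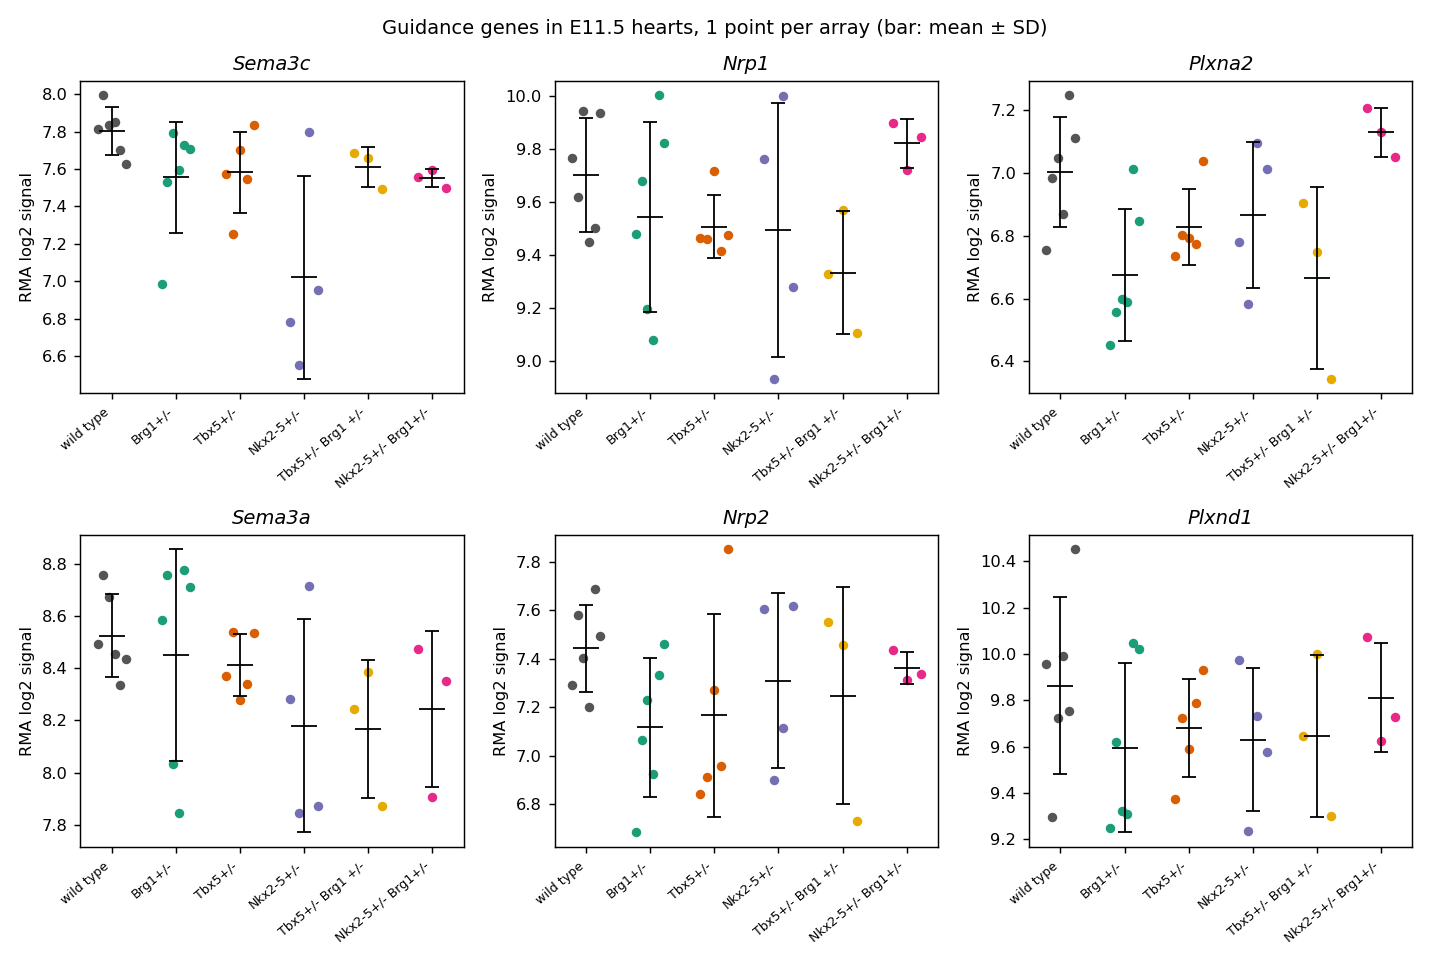
RMA log2 signal of each of the 6 genes (vertical axis, log2) in each array, by genotype group (horizontal axis); each point is an array, and the bars give the group mean ± SD. Sema3c in Nkx2-5+/- shows 3 arrays between 6.56 and 6.95 and replicate 3 at 7.80. For all 6 genes, groups that are neighbours in the order of means have overlapping ranges.

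From high to low, the Sema3c group means were 7.80 ± 0.13 in wild type (SD, n = 6), 7.61 ± 0.10 in Tbx5+/- Brg1 +/- (n = 3), 7.58 ± 0.22 in Tbx5+/- (n = 5), 7.56 ± 0.30 in Brg1+/- (n = 6), 7.55 ± 0.05 in Nkx2-5+/- Brg1+/- (n = 3) and 7.02 ± 0.54 in Nkx2-5+/- (n = 4). The 4 groups in the middle followed each other at steps of at most 0.03, below the larger SD of each pair. Wild type exceeded the next group by 0.19, more than the larger SD of the pair, with overlapping ranges. Nkx2-5+/- lay 0.53 below its neighbour, which did not exceed its own SD of 0.54. Across all 6 groups the limma F test gave an adjusted p of 0.0706 for Sema3c.

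Against wild type, Sema3c fell by 0.78 in Nkx2-5+/- (SE 0.17, 95% interval -1.12 to -0.44, limma adjusted p = 0.0090), which is 1.72-fold lower. It was 1 of 6 members called there, where 7.89% of all genes were called, 2.72% as higher and 5.16% as lower, and by p it ranked 141 of 19935. Without replicate 3 of Nkx2-5+/- the difference was -1.04 (limma adjusted p = 2.3e-05). Without replicate 2, the lowest array, it was -0.63 and no longer called (limma adjusted p = 0.0889). The call also ended with the arrays of these groups alone in the fit, where the difference stayed -0.78 (limma adjusted p = 0.0922) and 4 of all genes were called.

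Cell type markers moved with Sema3c in the Nkx2-5+/- arrays. For the 10 heart muscle markers the list means were 11.82, 11.67, 12.58 and 11.63 in Nkx2-5+/-, against 12.16 to 12.58 in wild type. All 10 stood below 0 (median -0.44), and 7 were called as lower, where 7.89% of all genes were called. For the 4 smooth muscle markers they were 9.46, 9.29, 10.24 and 9.30, against 9.89 to 10.18. All 4 stood below 0, and 2 were called: Cnn1, lower by 0.95 (limma adjusted p = 0.0121), and Myh11, lower by 0.38 (limma adjusted p = 0.0311). For the 7 red blood cell markers measured they were 11.05, 11.21, 9.14 and 10.92, against 8.34 to 10.26. All 7 stood above 0 (median 1.54), and 3 were called as higher. Replicates 1, 2 and 4 lay outside the wild-type range in all 3 lists, below it for muscle and above it for red blood cells. Replicate 3 lay inside that range for red blood cells, barely above it for heart muscle (12.5814 against 12.5801) and above it for smooth muscle. Of the 6 leukocyte markers 2 were called as lower, as were 1 of 6 epicardium markers and 1 of 5 neuron markers. Of the 5 foregut epithelium markers 1 was called as higher. Of the endothelium, cushion mesenchyme, liver and skeletal muscle markers 0 were called, and none of the 5 neural crest and glia markers measured was called, with list means of 5.25 to 5.78 in Nkx2-5+/- and 5.43 to 5.67 in wild type. The neural crest and glia markers had low mean signals, from 4.64 for Tfap2a to 6.26 for Sox10, so their lack of calls says little about these cells. With the red blood cell list mean as a covariate, Sema3c stood at -0.59 (limma adjusted p = 0.320). With the heart muscle list mean as a covariate, an alternative added after the values were seen, it stood at -0.54 (limma adjusted p = 0.531) and 0 of all genes were called. The part of these cell types in the Sema3c difference was not tested further.

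**Figure D2:**
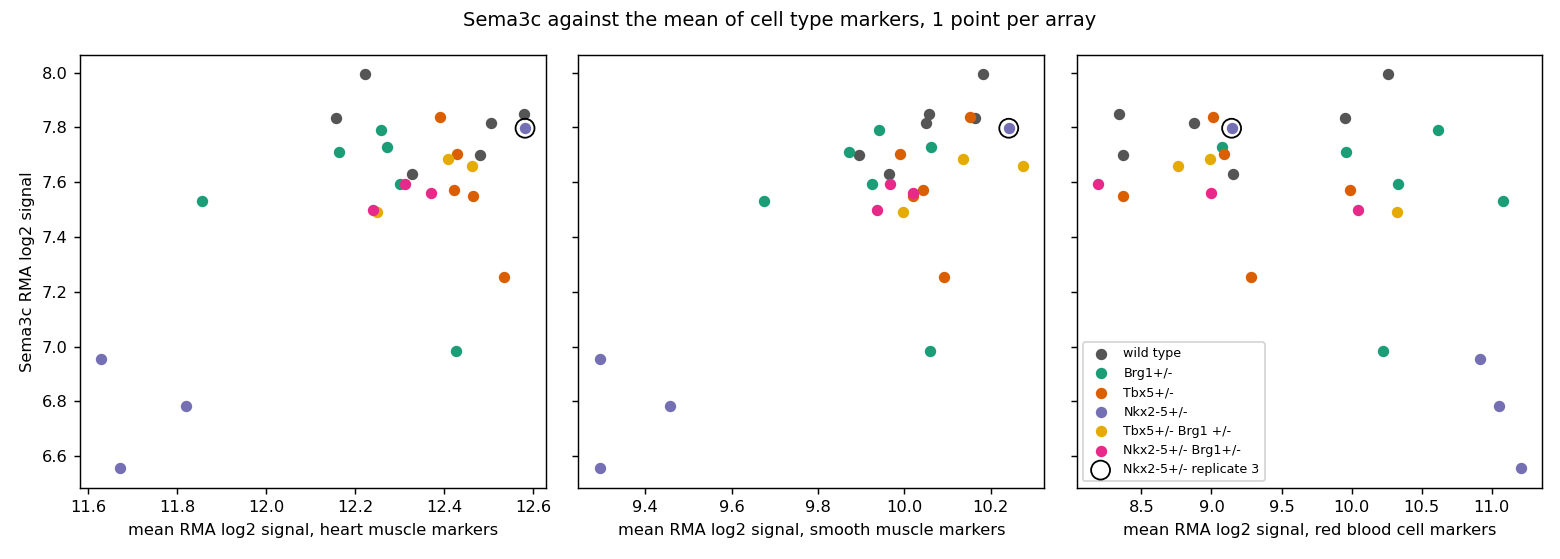
Sema3c signal (vertical axis, RMA log2) against the mean signal of the heart muscle, smooth muscle and red blood cell markers (horizontal axes, RMA log2), with 1 point per array coloured by genotype. The low Nkx2-5+/- arrays combine low Sema3c, low muscle marker means and high red blood cell marker means, and the circled Nkx2-5+/- replicate 3, at a Sema3c of 7.80, lies apart from them on the side of the wild-type arrays.

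In Nkx2-5+/- Brg1+/- Sema3c stood 0.53 above Nkx2-5+/- (SE 0.20, limma adjusted p = 0.166) and at -0.25 against wild type (limma adjusted p = 0.759). All 3 arrays were below wild type, as were those of 2.56% of all genes. The Nkx2-5 by Brg1 interaction, the effect of Brg1 loss in Nkx2-5+/- hearts minus its effect in hearts with both Nkx2-5 copies, was 0.78 (SE 0.25, 95% interval 0.27 to 1.28, limma adjusted p = 0.0630) and was not called. Without both arrays that went against their labels, the difference from Nkx2-5+/- was 0.79 (limma adjusted p = 0.0024) and the interaction 1.04 (limma adjusted p = 9.0e-04). With the red blood cell list mean as a covariate these were 0.32 and 0.43 (limma adjusted p = 0.999 and 1.0 after rounding), and with the heart muscle list mean 0.32 and 0.48 (limma adjusted p = 0.646 and 0.610). The red blood cell marker means were 8.19 to 10.04 in Nkx2-5+/- Brg1+/-, against 9.14 to 11.21 in Nkx2-5+/-, and the heart muscle means were 12.24 to 12.37, against 11.63 to 12.58. In Brg1+/- and Tbx5+/- Sema3c stood at -0.25 and -0.22 against wild type (limma adjusted p = 0.592 and 1.0 after rounding). In Tbx5+/- Brg1 +/- it stood at -0.19 against wild type (limma adjusted p = 0.979) and at 0.03 against Tbx5+/-, which was 0.09 without replicate 3.

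Sema3a, a ligand that repels axons and binds Nrp1, was not called in any comparison. In wild type its signal ran from 8.33 to 8.76 with a median of 8.47, and in Brg1+/- from 7.85 to 8.78 with a median of 8.65. In Brg1+/- the arrays split, with replicates 3 and 4 at 8.03 and 7.85 and the others at 8.58 or above. In Tbx5+/- the arrays gave 8.37, 8.54, 8.28, 8.34 and 8.54. In Nkx2-5+/- they gave 8.28, 7.85, 8.72 and 7.87, with the highest value again in replicate 3. For Tbx5+/- Brg1 +/- they gave 8.25, 8.38 and 7.87, and in Nkx2-5+/- Brg1+/- 8.47, 7.91 and 8.35. Every group overlapped wild type, and no group mean differed from its neighbour in the order by more than the larger SD. The order ran from 8.52 ± 0.16 in wild type (SD, n = 6) through 8.45 ± 0.41 in Brg1+/-, 8.41 ± 0.12 in Tbx5+/-, 8.24 ± 0.30 in Nkx2-5+/- Brg1+/- and 8.18 ± 0.41 in Nkx2-5+/- to 8.17 ± 0.26 in Tbx5+/- Brg1 +/-. Sema3a stood at -0.34 in Nkx2-5+/- (SE 0.18, 95% interval -0.70 to 0.02, limma adjusted p = 0.252). Without Nkx2-5+/- replicate 3 it fell by 0.52 (limma adjusted p = 0.0324). In Tbx5+/- Brg1 +/- it stood at -0.36 (SE 0.19, limma adjusted p = 0.979), and at -0.21 without replicate 3. The F test gave an adjusted p of 0.581.

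Nrp1, the coreceptor for Sema3a and Sema3c that also binds Vegf, varied as much within groups as between them. In wild type the signal ran from 9.45 to 9.94 with a median of 9.69, and in Brg1+/- from 9.08 to 10.003 with a median of 9.58. In Tbx5+/- the arrays gave 9.46, 9.46, 9.72, 9.42 and 9.47, a narrow set with replicate 3 above the rest. In Nkx2-5+/- they gave 9.76, 8.93, 10.001 and 9.28, which spans more than the wild-type range on both sides. Values in Tbx5+/- Brg1 +/- were 9.33, 9.57 and 9.10, and in Nkx2-5+/- Brg1+/- 9.90, 9.72 and 9.84. The order of means ran from 9.82 ± 0.09 in Nkx2-5+/- Brg1+/- (SD, n = 3) through 9.70 ± 0.21 in wild type, 9.54 ± 0.36 in Brg1+/-, 9.51 ± 0.12 in Tbx5+/- and 9.49 ± 0.48 in Nkx2-5+/- to 9.33 ± 0.23 in Tbx5+/- Brg1 +/-. No neighbours differed by more than the larger SD. The lowest group stood at -0.37 against wild type (SE 0.19, 95% interval -0.76 to 0.02, limma adjusted p = 0.979). The Nkx2-5 by Brg1 interaction was 0.49 (SE 0.26, limma adjusted p = 0.293), and the F test gave an adjusted p of 0.562. With array weights, which gave Nkx2-5+/- replicate 3 a weight of 0.18 and Nkx2-5+/- Brg1+/- replicate 1 a weight of 5.43, Nrp1 passed for this interaction at 0.63 (limma adjusted p = 0.0386).

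Nrp2, the coreceptor that also binds Sema3c and Sema3f, had its highest mean in wild type and its lowest in Brg1+/-. In wild type it ran from 7.20 to 7.69 with a median of 7.45, and in Brg1+/- from 6.68 to 7.46 with a median of 7.15. In Tbx5+/- the arrays gave 6.84, 6.91, 7.27, 6.96 and 7.85, so that 3 lay below wild type and 1 above it. In Nkx2-5+/- they gave 7.61, 6.90, 7.12 and 7.62. The Tbx5+/- Brg1 +/- arrays gave 7.55, 7.46 and 6.73, where the low value came from replicate 3, and in Nkx2-5+/- Brg1+/- 7.44, 7.31 and 7.34. The means were 7.44 ± 0.18 in wild type (SD, n = 6), 7.36 ± 0.07 in Nkx2-5+/- Brg1+/-, 7.31 ± 0.36 in Nkx2-5+/-, 7.25 ± 0.45 in Tbx5+/- Brg1 +/-, 7.17 ± 0.42 in Tbx5+/- and 7.12 ± 0.29 in Brg1+/-, with no neighbours apart by more than the larger SD. Brg1+/- stood at -0.33 against wild type (SE 0.17, 95% interval -0.67 to 0.01, limma adjusted p = 0.533). Without Tbx5+/- Brg1 +/- replicate 3 that group stood at 0.06 against wild type, in place of -0.20, and neither value was called. The F test gave an adjusted p of 0.718.

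Plxna2, the plexin of cardiac neural crest cells, had its lowest means in Brg1+/- and Tbx5+/- Brg1 +/- and its highest in Nkx2-5+/- Brg1+/-, with no comparison called. In wild type it ran from 6.76 to 7.25 with a median of 7.01, and in Brg1+/- from 6.45 to 7.01 with a median of 6.59. In Brg1+/- 4 of the 6 arrays, at 6.60 or below, lay under every wild-type array. In Tbx5+/- the arrays gave 6.74, 6.80, 6.79, 6.77 and 7.04, and in Nkx2-5+/- 6.78, 6.58, 7.09 and 7.01. In Tbx5+/- Brg1 +/- they gave 6.90, 6.75 and 6.35, and in Nkx2-5+/- Brg1+/- 7.20, 7.13 and 7.05. The arrays of Nkx2-5+/- Brg1+/- all lay in the upper part of the wild-type range. The means ran from 7.13 ± 0.08 in Nkx2-5+/- Brg1+/- (SD, n = 3) through 7.002 ± 0.17 in wild type, 6.87 ± 0.23 in Nkx2-5+/-, 6.83 ± 0.12 in Tbx5+/- and 6.68 ± 0.21 in Brg1+/- to 6.67 ± 0.29 in Tbx5+/- Brg1 +/-. Neighbours in this order did not differ by more than the larger SD.

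Against wild type Plxna2 stood at -0.33 in Brg1+/- (SE 0.11, 95% interval -0.55 to -0.10, limma adjusted p = 0.418) and at -0.34 in Tbx5+/- Brg1 +/- (SE 0.13, limma adjusted p = 0.979). Neither passed, and without replicate 3 of Tbx5+/- Brg1 +/- the latter was -0.18. Its Nkx2-5 by Brg1 interaction was 0.59 (SE 0.18, 95% interval 0.22 to 0.96, limma adjusted p = 0.0565), just short of the threshold. That interaction passed in some other settings: 0.66 without both arrays that went against their labels (limma adjusted p = 0.0082), 0.59 with array weights (limma adjusted p = 0.0131) and 0.59 with genes of low mean signal removed (limma adjusted p = 0.0379). It did not pass with the compared arrays alone, at 0.59 (limma adjusted p = 0.0882), with the red blood cell list mean as a covariate, at 0.25 (limma adjusted p = 1.0 after rounding), or with the heart muscle list mean, at 0.48 (limma adjusted p = 0.503). The red blood cell marker means, 9.08 to 11.08 in Brg1+/- and 8.34 to 10.26 in wild type, overlapped, and 7 of the 7 markers stood higher in Brg1+/-, with a median of 1.13 and none called. With their mean as a covariate, Plxna2 in Brg1+/- stood at -0.19 (limma adjusted p = 1.0 after rounding). The F test gave an adjusted p of 0.121.

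Plxnd1, the endothelial plexin that binds Sema3e directly, showed no called difference. In wild type it ran from 9.30 to 10.45 with a median of 9.86, the widest wild-type range of the 6 genes, and in Brg1+/- from 9.25 to 10.05 with a median of 9.47. In Tbx5+/- the arrays gave 9.37, 9.72, 9.59, 9.79 and 9.93, and in Nkx2-5+/- 9.97, 9.24, 9.73 and 9.58. Those of Tbx5+/- Brg1 +/- gave 9.65, 9.998 and 9.30, and in Nkx2-5+/- Brg1+/- 10.08, 9.63 and 9.73. Every group overlapped wild type. The means lay between 9.86 ± 0.38 in wild type (SD, n = 6) and 9.59 ± 0.36 in Brg1+/- (n = 6), with 9.81 ± 0.24 in Nkx2-5+/- Brg1+/-, 9.68 ± 0.21 in Tbx5+/-, 9.65 ± 0.35 in Tbx5+/- Brg1 +/- and 9.63 ± 0.31 in Nkx2-5+/- between them. No neighbours were apart by more than the larger SD, and the F test gave an adjusted p of 0.839. The difference of Brg1+/- from wild type was -0.27 with a 95% interval of -0.62 to 0.08, which includes 0.

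Across comparisons the 6 genes stood mostly on the same side, with few differences past the test. In Brg1+/- against wild type 0 of 6 were called, where 0.01% of all genes were, and 6 of 6 stood below 0 with a median of -0.26 against -0.02 for all genes. In Tbx5+/- 0 of 6 were called, where 0% of all genes were, and 6 stood below 0 with a median of -0.19. In Nkx2-5+/- 6 stood below 0 with a median of -0.22. In Tbx5+/- Brg1 +/- 0 were called, where 0% of all genes were, and 6 stood below 0 with a median of -0.28. In Nkx2-5+/- Brg1+/- 0 were called, where 0.0351% of all genes were, and 4 stood below 0 with a median of -0.07. These 5 comparisons share the wild-type arrays, so a high wild-type level of a gene enters all of them. The shared side is not particular to the 6 genes. All 8 endothelium markers also stood below 0 in Brg1+/-, Tbx5+/-, Nkx2-5+/- and Tbx5+/- Brg1 +/-. Other lists went the other way: all 7 red blood cell markers stood above 0 in Brg1+/-, and 9 of 10 heart muscle markers did in Tbx5+/-. At an unadjusted p under 0.05 limma gave 1 member in Brg1+/- (Plxna2), 0 in Tbx5+/-, 1 in Nkx2-5+/- (Sema3c), 1 in Tbx5+/- Brg1 +/- (Plxna2) and 0 in Nkx2-5+/- Brg1+/-.

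**Figure D3:**
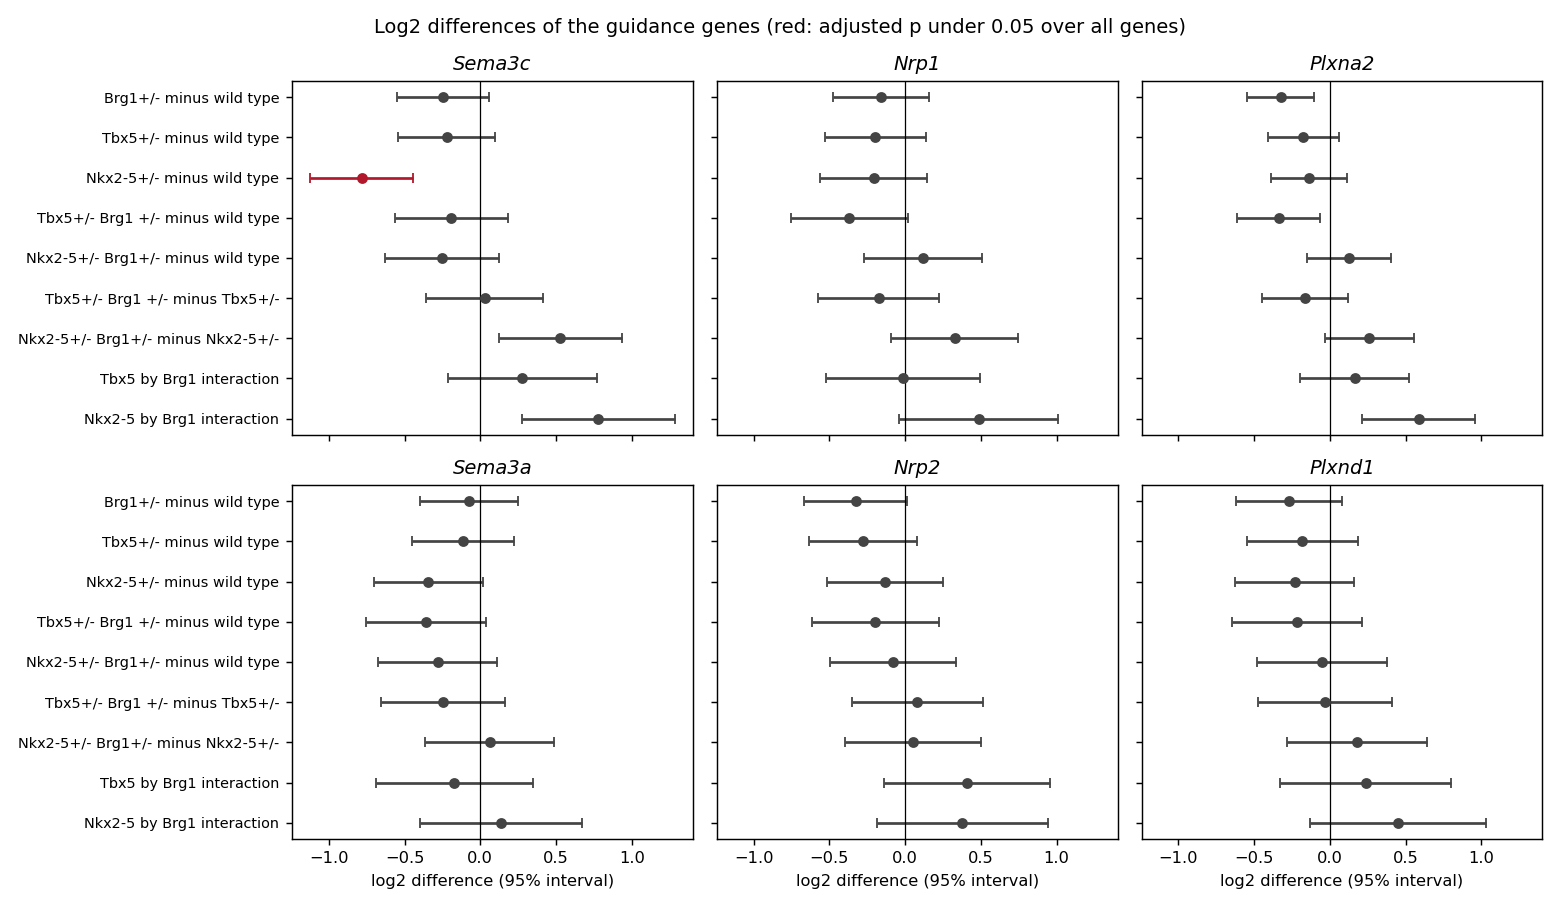
Log2 differences of the 6 genes with their 95% intervals in the comparisons of the study (horizontal axis, log2). Red marks a limma adjusted p under 0.05 over all genes, and Sema3c in Nkx2-5+/- against wild type, at -0.78, is the red point.

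The remaining comparisons gave no member call. Both interactions still include the wild-type arrays, and a high wild-type level of a gene raises them. In Tbx5+/- Brg1 +/- against Tbx5+/- 0 of 6 were called, where 0% of all genes were, and the median was -0.10. In Nkx2-5+/- Brg1+/- against Nkx2-5+/- 0 were called, where 0.0401% of all genes were, and 6 of 6 stood above 0 with a median of 0.22. Only Sema3c had an unadjusted limma p under 0.05 there. In the Tbx5 by Brg1 interaction 0 were called, where 0% of all genes were, and the largest value was 0.41 for Nrp2 (limma adjusted p = 1.0 after rounding), or 0.67 without Tbx5+/- Brg1 +/- replicate 3 (limma adjusted p = 0.968). In the Nkx2-5 by Brg1 interaction 0 were called, where 4.95% of all genes were, 6 of 6 stood above 0 and the median was 0.47 against 0.03 for all genes. Marker list medians there were 0.44 for endothelium, 0.53 for heart muscle, 0.74 for epicardium, -0.11 for neural crest and glia and -2.76 for red blood cells. Sema3c and Plxna2 had an unadjusted limma p under 0.05 in that interaction. By the F test over the 6 groups 0 were called, where 3.19% of all genes were. At an unadjusted p under 0.05 the limma counts over all genes were 1935 in Brg1+/-, 788 in Tbx5+/-, 4439 in Nkx2-5+/- (22.3%), 873 in Tbx5+/- Brg1 +/-, 1473 in Nkx2-5+/- Brg1+/-, 494 in Tbx5+/- Brg1 +/- against Tbx5+/-, 3063 in Nkx2-5+/- Brg1+/- against Nkx2-5+/-, 606 and 4024 in the Tbx5 and Nkx2-5 interactions, and 3819 by F.

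In the wider pathway, 2 secreted ligands and 4 intracellular effectors were called as lower in Nkx2-5+/- hearts, and 1 effector as higher. Over 7 lists of guidance and outflow genes 11 of 99 were called there, Sema3c included, which is 11.1% beside the 7.89% of all genes. Neither this share nor a difference between the lists was tested. Of the 7 class 3 semaphorins, 2 were called as lower and 0 as higher (median -0.16). They were Sema3c and Sema3d, another secreted ligand of the heart, which fell by 0.57 (SE 0.14, limma adjusted p = 0.0158). Of the 11 plexins and neuropilins 0 were called, and all 11 stood below 0 with a median of -0.14. The 13 other semaphorins, mostly membrane-bound, had 0 calls and a median of -0.13. Of 24 effectors of semaphorin signalling, 4 were called as lower and 1 as higher. Dpysl3 and Dpysl2, collapsin response mediators that bind tubulin, fell by 0.87 (SE 0.18, limma adjusted p = 0.0084) and 0.44 (SE 0.12, limma adjusted p = 0.0264). Rras, the small GTPase on which plexins act, fell by 0.57 (limma adjusted p = 0.0291), and Gipc1, an adaptor of neuropilins and plexins, fell by 0.35 (limma adjusted p = 0.0404) and was named after its value was seen. Arhgef12, whose product binds B-type plexins, rose by 0.54 (limma adjusted p = 0.0137).

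Among genes that share receptors or tissue with the 6, a growth factor of the Vegf family and 3 outflow tract regulators were called as lower in Nkx2-5+/-. Of the 7 Vegf ligands and receptors, Vegfb, a ligand of Flt1 and Nrp1, fell by 0.54 in Nkx2-5+/- (limma adjusted p = 0.0158) and no other was called (median -0.20). Of 14 Slit, Robo, netrin and ephrin genes measured, 0 were called (median -0.27). Of 23 outflow tract and second heart field regulators measured, 3 were called as lower and 0 as higher (median -0.22). They were Bmp4, a growth factor of the outflow tract, by 0.61 (limma adjusted p = 0.0102), the transcription factor Gata6, by 0.52 (limma adjusted p = 0.0170), and the transcription factor Hand2, by 0.39 (limma adjusted p = 0.0402). The same marker shifts of muscle and blood given beside Sema3c stand beside these calls. With the red blood cell or heart muscle list mean as a covariate, with the compared arrays alone or without Nkx2-5+/- replicate 2, 0 of the 10 calls outside the 6 genes held. Without Nkx2-5+/- replicate 4 the number was 1, and without wild type replicate 4 it was 6. Calls over all genes also fell to few or none with the heart muscle list mean or the compared arrays alone. Whether the losses are particular to these genes was not tested. In Brg1+/-, Tbx5+/- and both compound groups against wild type these 7 lists had 0 calls.

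The Nkx2-5 by Brg1 interaction was called for receptors and ligands outside the 6 genes. Over the same 7 lists 11 of 99 were called, or 11.1% beside the 4.95% of all genes, and that difference in share was not tested. Sema3c and Plxna2 missed the threshold in it at an adjusted p of 0.0630 and 0.0565. Of the 11 plexins and neuropilins, Plxna4, a plexin for Sema3a, had an interaction of 0.84 (SE 0.19, limma adjusted p = 0.0200) and Plxnb2, a receptor of class 4 semaphorins, 0.73 (SE 0.18, limma adjusted p = 0.0240), with a list median of 0.49. Of the 7 class 3 semaphorins, Sema3d had 0.96 (SE 0.21, limma adjusted p = 0.0189) and Sema3f 0.55 (SE 0.15, limma adjusted p = 0.0295). Outside these lists Bmp4, Gata6, Hand2 and Gata4 among the outflow regulators, Vegfb and Vegfc among the Vegf genes, and Slit3 among the other guidance genes were called, all above 0. Of the 7 red blood cell markers, 7 were called with an interaction below 0 and a median of -2.76, and 1 of 10 heart muscle markers was called above 0 (median 0.53). With the red blood cell list mean or the heart muscle list mean as a covariate, or with the compared arrays alone, none of the 11 interaction calls held. The same was true without Nkx2-5+/- replicate 2 and without Nkx2-5+/- Brg1+/- replicate 1 or 2, while 7 held without Nkx2-5+/- replicate 1, Brg1+/- replicate 2 or wild type replicate 4 or 5. The share of all genes called in these settings is not given here. Whether the lost interaction calls are particular to these genes was not tested.

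Within groups, some of the 6 genes varied together from array to array. After each array's value was taken as its deviation from its group mean, all 15 pairs had a Pearson's r above 0 over the 27 arrays, from 0.19 for Sema3c with Plxnd1 to 0.80 for Sema3a with Nrp1. The p-values come from 100000 two-sided permutations within groups, adjusted over the 15 pairs. Sema3a and Nrp1, a ligand and its coreceptor, had r = 0.80 (permutation p = 1.4e-04, adjusted p = 0.0021), Spearman correlation = 0.75 (permutation p = 3.3e-04, adjusted p = 0.0050) and r = 0.74 without the 2 arrays farthest from the median of Sema3a. Nrp2 and Plxna2 had r = 0.73 (permutation p = 4.7e-04, adjusted p = 0.0035), Spearman correlation = 0.71 (permutation p = 8.1e-04, adjusted p = 0.0061) and r = 0.67 without the farthest arrays. Nrp1 and Plxnd1 had r = 0.65 (permutation p = 0.00175, adjusted p = 0.0088), Spearman correlation = 0.65 (permutation p = 0.00257, adjusted p = 0.0129) and r = 0.65 without the farthest arrays. In these 3 pairs both measures passed, and in 3 further pairs r alone did. Arrays share the makeup of the dissected heart, so such deviations need not be particular to a pair.

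**Figure D4:**
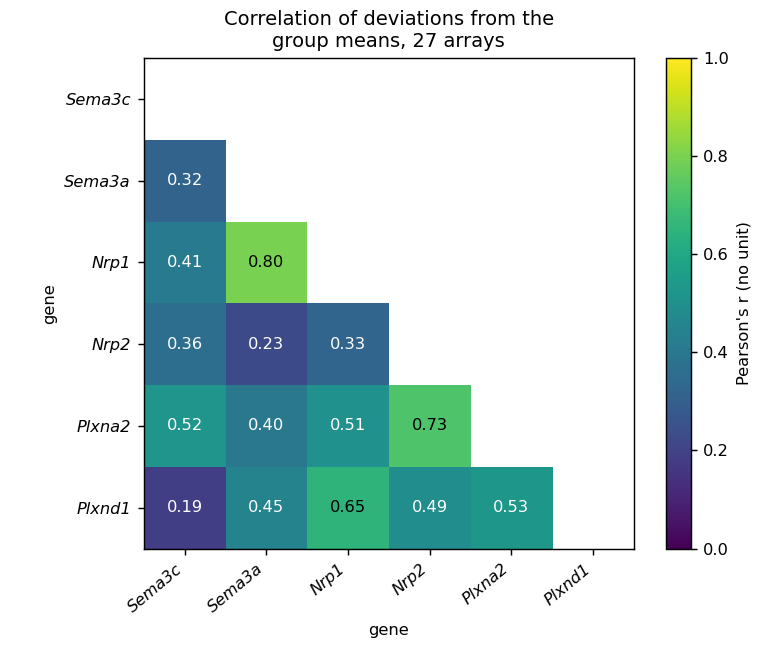
Pearson's r between the 6 genes (both axes) over 27 arrays, after subtraction of each group's mean; the colour scale gives r. The highest value is 0.80 for Sema3a with Nrp1 and the lowest is 0.19 for Sema3c with Plxnd1.

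Several members followed the markers of endothelium, cushion mesenchyme and epicardium in the same way. Over 72 relations of a member with a marker list, 7 passed for both Pearson's and Spearman's correlation. Plxnd1 had r = 0.83 with the endothelium list (permutation p = 2.0e-05, adjusted p = 7.2e-04), Spearman correlation = 0.86 (permutation p = 1e-05, the smallest these permutations can give, adjusted p = 3.6e-04) and r = 0.82 without the 2 farthest arrays. Nrp1 had r = 0.84 with the endothelium list (permutation p = 6.0e-05, adjusted p = 0.0011), Spearman correlation = 0.81 (permutation p = 2.0e-04, adjusted p = 0.0029) and r = 0.79 without the farthest arrays. Nrp1 had r = 0.84 also with the cushion mesenchyme list (permutation p = 1e-05, adjusted p = 7.2e-04), Spearman correlation = 0.83 (permutation p = 1e-05, adjusted p = 3.6e-04) and r = 0.77 without the farthest arrays. The other relations that passed were Nrp1 with epicardium (r = 0.79), Plxnd1 with cushion mesenchyme (r = 0.73), and Sema3a with endothelium (r = 0.75) and cushion mesenchyme (r = 0.72). None of the 12 relations of Sema3c passed. The smallest permutation p of r was with cushion mesenchyme (r = 0.61, permutation p = 0.00916, adjusted p = 0.0733), where r was 0.46 without the 2 farthest arrays. With smooth muscle r was 0.63 (permutation p = 0.0802, adjusted p = 0.275) and 0.17 without the 2 farthest arrays, so that r rests on those arrays. The Spearman correlation with smooth muscle was 0.54 (permutation p = 0.0205, adjusted p = 0.111).

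The genes whose signal was most like each member over the 27 arrays were taken by Pearson's r among 14275 genes with a mean log2 signal of at least 5. They are given as descriptions with no test, and arrays share genotype and tissue makeup. For Sema3c they were Ssbp1, a mitochondrial DNA-binding protein (r = 0.86, Spearman correlation = 0.57), Lrch2 (r = 0.84, Spearman correlation = 0.76) and Dmc1, a meiotic recombinase (r = 0.84, Spearman correlation = 0.63). Within groups r was 0.79, 0.74 and 0.71 in this order. For Plxnd1 they were Stab1, a scavenger receptor of endothelium and macrophages (r = 0.91), Igfbp4, which binds insulin-like growth factors (r = 0.91), and Ets1, an endothelial transcription factor (r = 0.89). For Nrp1 they were the cofilin phosphatase gene Ssh2 (r = 0.92), Setd5 (r = 0.91) and the Bmp receptor gene Bmpr2 (r = 0.91). For Sema3a they were Pafah1b2 (r = 0.89), Fbxo11 (r = 0.87) and Alg11 (r = 0.87). For Nrp2 they were Tmtc2 (r = 0.85), the transcription factor gene Foxp2 (r = 0.85) and the collagen receptor gene Ddr2 (r = 0.81). For Plxna2 they were Jag1, a Notch ligand of the outflow tract (r = 0.85), Rimklb (r = 0.82) and Ptprd (r = 0.81).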

How the data were processed

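Each of 27 samples of total RNA was labelled with biotin and put on its own array, per the labels. The authors deposited log2 signals for 28815 probe sets, made by RMA in Affymetrix Power Tools, as the submitters' processing notes list, with versions not given in the sources used here. These values were used without further change. Probe sets that carry 1 symbol numbered 21780, and where a gene had several, the one with the highest overall mean was used, which gave 19935 genes. Differences, F tests and two-sided p-values came from limma 3.58.1 in R 4.3.3 (21 residual and 6.71 prior degrees of freedom), with Benjamini-Hochberg adjustment within each of 9 comparisons. The fit was tested on simulated data. Correlations and figures used Python 3.11.15 and matplotlib 3.10.9.

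The 6 genes, the lists and the tests were chosen with earlier results of these data known. Named beside the 6 are the targeted genes, up to 4 called genes of each list and comparison (or the 2 with the smallest p where none passed), and the 3 genes most like each member. The number of arrays limits the precision. The labels number the replicates, but same-numbered arrays did not deviate together (median r of 0.011 over 55 pairs and 0.0045 for other pairs), so the main test has no pairing. Alternatives were other normalizations, filters, variance priors and probe set rules, array weights, covariates (red blood cell, heart muscle or Y-linked list means, first residual principal component), a replicate block, the compared arrays alone and arrays left out.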

Additional observations from a re-analysis of the deposited data

Results flagged for a closer look

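In 24 sets of 4 to 6 arrays, a member gene within a group, 3 held an array far from the others, where chance gives about 1 in 20. Sema3c in Brg1+/- replicate 1 was 6.98, with the next array at 7.53. Nrp1 in Tbx5+/- replicate 3 was 9.72, with the next at 9.47. Plxna2 in Tbx5+/- replicate 5 was 7.04, with the next at 6.80. The gaps were 0.679, 0.807 and 0.781 of the range of their sets.

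The effect of Brg1 loss differed between hearts with and without an Nkx2-5 deletion (Nkx2-5 by Brg1 interaction, limma) for 11 of 99 genes of the guidance and outflow lists, or 11.1%, where 4.95% of all genes were called. The interactions were 0.97 for Bmp4 (adjusted p = 0.0166), 0.96 for Sema3d (adjusted p = 0.0189), 0.84 for Plxna4 (adjusted p = 0.0200), 0.81 for Gata6 (adjusted p = 0.0209), 0.73 for Plxnb2 (adjusted p = 0.0240) and 0.82 for Slit3 (adjusted p = 0.0245). They were 0.55 for Sema3f and 0.74 for Vegfb (adjusted p = 0.0295 for each), 0.64 for Hand2 (adjusted p = 0.0318), 0.65 for Gata4 (adjusted p = 0.0379) and 0.59 for Vegfc (adjusted p = 0.0469). None passed with the red blood cell list mean as a covariate. The share of all genes that passed with it is not given here, so this loss need not be particular to these genes.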

How the results depend on the processing

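Of 54 log2 differences of the 6 genes under 41 alternatives, 2138 of 2214 values kept their direction and their side of the threshold, 49 changed sign, 4 lost a call and 23 gained one. For the other called genes 680 of 861 values kept the call and 181 lost it, with no change of sign. The cause of each change below was not tested. In the main fit 7.89% of all genes were called in Nkx2-5+/- against wild type and 4.95% in the Nkx2-5 by Brg1 interaction. The share was 0.0401% in Nkx2-5+/- Brg1+/- against Nkx2-5+/- and 3.19% by F. Calls over all genes also change between alternatives, and their share in each is not given here. A changed member count need not be particular to the members.

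In Nkx2-5+/- against wild type 1 member was called. The count was 0 with the compared arrays alone, 0 with the red blood cell list mean, 0 with the heart muscle list mean (added after the data were seen), 2 without both arrays that went against their labels, and 0 to 2 with 1 array left out. In Nkx2-5+/- Brg1+/- against Nkx2-5+/-, where 0 were called, it was 2 with array weights, 1 with the principal component, 1 without both arrays, and 0 to 1 with 1 array left out. In the Nkx2-5 by Brg1 interaction, where 0 were called, it was 1 after quantile normalization, 2 with genes of low mean removed, 3 with array weights, 1 with the replicate block (Plxna2 at 0.60, limma adjusted p = 0.0276), 2 with the principal component, 2 without both arrays, and 0 to 2 with 1 array left out: 2 without Brg1+/- replicate 5 or Nkx2-5+/- replicate 3, and 1 without Tbx5+/- Brg1 +/- replicate 3. By F, where 0 were called, it was 1 after quantile normalization, 3 with array weights, 1 with the replicate block, 2 with the principal component, 1 without both arrays, and 0 to 2 with 1 array left out. An F test with the compared arrays alone was not run. In the other 6 comparisons the member count was 0 in every alternative run.

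The differences that changed sign were not called, and not all were small. In the main fit Plxnd1 stood at 0.45 in the Nkx2-5 by Brg1 interaction (SE 0.28, limma adjusted p = 0.418). It stood at -0.23 in Nkx2-5+/- against wild type (SE 0.19, limma adjusted p = 0.534). With the red blood cell list mean, against wild type in Nkx2-5+/-, Plxna2 stood at 0.050 and Plxnd1 at 0.060. With it Plxnd1 stood at 0.010 in Tbx5+/- Brg1 +/- against Tbx5+/-. In Nkx2-5+/- Brg1+/- against Nkx2-5+/- it gave -0.040 for Sema3a, -0.053 for Nrp2 and -0.13 for Plxnd1, and in the Nkx2-5 by Brg1 interaction -0.039 for Sema3a and -0.078 for Plxnd1. With the heart muscle list mean Sema3a stood at -0.070 in the former and -0.054 in the latter. With the replicate block Nrp2 stood at 0.0095 in Nkx2-5+/- and 0.067 in Nkx2-5+/- Brg1+/-, Plxnd1 at 0.14 in Nkx2-5+/- Brg1+/- and 0.059 in Tbx5+/- Brg1 +/- against Tbx5+/-, and Sema3a at -0.016 in Nkx2-5+/- Brg1+/- against Nkx2-5+/-. With array weights Nrp2 stood at 0.0036 in Nkx2-5+/- and 0.016 in Nkx2-5+/- Brg1+/-, and Plxnd1 at 0.084 in the latter, where quantile normalization gave 0.046. Without both arrays Nrp2 stood at 0.062 in Tbx5+/- Brg1 +/- against wild type and -0.012 in Nkx2-5+/- Brg1+/- against Nkx2-5+/-, Plxnd1 at 0.14 in Tbx5+/- Brg1 +/- against Tbx5+/-, and Nrp1 at 0.10 in the Tbx5 by Brg1 interaction.

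With 1 array left out, Sema3a ran from -0.14 to 0.047 in Brg1+/- and from -0.052 to 0.24 in Nkx2-5+/- Brg1+/- against Nkx2-5+/-. Nrp2 ran from -0.23 to 0.0040 in Nkx2-5+/-, from -0.35 to 0.062 in Tbx5+/- Brg1 +/- against wild type, from -0.071 to 0.34 in Tbx5+/- Brg1 +/- against Tbx5+/-, and from -0.084 to 0.15 in Nkx2-5+/- Brg1+/- against Nkx2-5+/-. Plxnd1 ran from -0.18 to 0.065 in Nkx2-5+/- Brg1+/- against wild type and from -0.21 to 0.14 in Tbx5+/- Brg1 +/- against Tbx5+/-. Sema3c ran from -0.054 to 0.092 in the last of these, and Nrp1 from -0.13 to 0.10 in the Tbx5 by Brg1 interaction.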
